A study of Mus musculus with 24 samples.

Results

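The GABA-A receptor subunits measured here were the rows of 7 listed genes, Gabra2, Gabra3, Gabra4, Gabra5, Gabrb1, Gabrb2 and Gabrd, taken by name from a table of 23845 genes for RNA and a table of 20436 genes for ribosome-protected fragments (RPFs). All 7 were in both tables and all 7 passed the filter on low counts in both assays, which kept 14516 genes for RNA and 12877 for RPFs. The tables together held 19 genes for GABA-A subunits. The list was drawn up from gene names, not by a cut on a measured value, but with earlier results of these data known. The comparisons asked of it were RNA, RPFs and RPFs per RNA over 4 groups of slices. The synaptic subunit Gabra2 was also set against the extrasynaptic Gabra5 and Gabrd in each library.

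GABA-A receptors are the chloride channels that carry most fast inhibition in the hippocampus. Each is a ring of subunits made of alpha and beta subunits together with a gamma or a delta subunit. GABA binds where an alpha and a beta subunit meet, and benzodiazepines bind where certain alpha subunits meet a gamma subunit. The alpha subunit and the choice of gamma or delta govern where the receptor sits. Receptors with alpha 2 and a gamma subunit collect at synapses and give brief inhibitory currents, whereas those with alpha 5 or with delta lie mostly outside synapses, respond to low ambient GABA and give a tonic current. In the hippocampus alpha 5 is abundant on pyramidal neurons, and delta, often with alpha 4, is best known from dentate granule cells and some interneurons.

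Ribosome profiling sequences the stretches of mRNA that ribosomes cover, so an RPF count reflects how many ribosomes sat on a message. The study cautions that changes in this need not reflect changes in protein synthesis, because it found altered signalling to ribosome movement. Both assays were run on hippocampal slices of male mice 28 to 42 days old, either wild-type (WT) or heterozygous for a germline deletion of Tsc2 (Tsc2+/-), which encodes an inhibitor of mTOR signalling. Slices received ACSF as vehicle or 100 µM DHPG, which activates the mGluR1 and mGluR5 class of glutamate receptor, for 5 min, and those of all groups then went into cycloheximide at 100 µg/ml, which stops elongating ribosomes. The groups were WT vehicle, WT DHPG, Tsc2+/- vehicle and Tsc2+/- DHPG, with 3 RNA libraries and 3 RPF libraries in each, 24 libraries in all. Per the study's methods, the deletion came from crossing floxed mice to a CMV-Cre line and so was present in every cell type, their offspring were bred on C57BL/6J, CA3 was cut away from the slices, several mice were pooled in each library, and the RNA and RPF libraries of a replicate came from 1 lysate. Fewer cells of a type and less RNA per cell cannot be told apart in such pooled tissue.

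RNA libraries held 14801679 to 24067838 counts and RPF libraries 5296006 to 13613673. In the RPF libraries of replicates 2 and 3, 97.9% to 98.5% of the non-zero counts were even, against 48.2% to 49.0% in those of replicate 1. The reason is not given in the sources used here, and the totals of those libraries may overstate their depth. Tsc2 was lower in each Tsc2+/- library than in each WT library of its assay (RNA 128 to 137 against 186 to 214 CPM, counts scaled to library size, and RPFs 76.5 to 84.5 against 123 to 146 CPM). The markers of CA1 pyramidal neurons were abundant in RNA, at a summed 1860.4 to 2040.2 CPM over 8 genes. In vehicle this sum was 1946 to 2040 CPM in Tsc2+/- against 1860 to 1943 in WT. Under DHPG it was 1965 to 1991 against 1939 to 1950, so the genotypes did not overlap in either treatment. The RPF sums of these markers did overlap, and 0 of the 8 were called. The 7 markers of CA3 that were found still summed to 534 to 672 CPM, mostly from Nnat, which is not particular to CA3 (Nnat alone 418 to 561 CPM). The 10 markers of dentate granule cells, where delta and alpha 4 are most at home, summed to 247, 211 and 176 CPM for WT vehicle replicates 1, 2 and 3, 205, 227 and 221 for WT given DHPG, 214, 189.7 and 191 for vehicle-treated Tsc2+/- and 172, 185 and 169.6 for Tsc2+/- given DHPG. The Tsc2+/- DHPG libraries thus lay below those of WT DHPG in this sum, and WT vehicle replicate 1 was the highest library. Much of the sum came from Fam163b, at 103 to 134 CPM over the libraries. None of the 10 was at 0 in all libraries, and 1 of them, Prox1, the transcription factor that defines granule cells, was called lower in Tsc2+/- RNA averaged over vehicle and DHPG (log2 fold change -0.41, SE 0.0852, edgeR adjusted p 0.0161).

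The bases around the start codon are shown for the 7 messages because ribosome loading is the readout compared below. They are from spliced RefSeq transcripts of GRCm38.p6, 5′ to 3′, with 12 bases before and 6 after the start codon, which is in capitals. For each gene the transcript with the longest coding sequence was taken, and other transcripts of a gene may start elsewhere.
Gabra2: ggcaacaagaagATGaagaca
Gabra3: acacccatagagATGgaaggg
Gabra4: catgttgcgaagATGgtttct
Gabra5: ttcttactgggaATGgacaat
Gabrb1: tcagagttaggaATGtggaca
Gabrb2: gaacctaaagggATGtggaga
Gabrd: gcccgcaaggccATGgacgtt

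A purine stood 3 bases before the start codon in 7 of 7 subunits, as it did in 85.3% of 19501 mouse genes. A G followed the start codon directly in 4 of 7 (Gabra3, Gabra4, Gabra5 and Gabrd), against 50.3% of genes. Gabra2, Gabrb1 and Gabrb2, the other 3, had an A or a T there. The genes lie in part together. On GRCm38.p6, the build of the counts, Gabra2 is on chromosome 5, 70958392 to 71095849, minus strand, Gabra4 on chromosome 5, 71569734 to 71658308, minus strand and Gabrb1 on chromosome 5, 71657921 to 72149572, plus strand. Gabra4 and Gabrb1 start head to head and share 388 bases on opposite strands, so reads from that stretch can be told apart only by strand. The RNA kit keeps strand, and whether the counting used it is not given in the sources used here. Gabra5 is on chromosome 7, 57407669 to 57591016, minus strand, Gabrb2 on chromosome 11, 42419515 to 42632591, plus strand, Gabrd on chromosome 4, 155384979 to 155398098, minus strand and Gabra3 on chromosome X, 72432676 to 72656919, minus strand.

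Levels of different subunits were compared per length. RPFs per kb of coding sequence were highest for Gabra2, at 328 ± 63.0 CPM per kb (SD over the 12 libraries), followed by Gabrb2 at 274 ± 10.5. Gabra2 lay above Gabrb2 in 9 of 12 libraries and their ranges overlapped. Next came Gabrb1 at 164 ± 9.53 and Gabra5 at 140.4 ± 7.90, in that order in 12 of 12 libraries although their ranges overlapped. Gabra3 at 104 ± 11.8, Gabra4 at 57.3 ± 3.07 and Gabrd at 21.3 ± 2.39 CPM per kb followed, each apart from its neighbour in all libraries. The delta subunit had the fewest RPFs per length of the 7, above 55.4% of the 12235 genes with a length, whereas Gabra2 stood above 95.5% of them.

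RNA gave another order. Per kb of transcript, Gabra5 led at 108 ± 6.96 CPM per kb, more than Gabrb2 at 43.2 ± 2.93 and Gabra3 at 38.7 ± 2.75 in 12 of 12 libraries. The ranges of Gabrb2 and Gabra3 overlapped. Gabra4 at 23.6 ± 1.81 and Gabra2 at 20.7 ± 3.04 did not differ beyond their spread, with Gabra4 higher in 8 of 12 libraries. Gabrd at 9.21 ± 0.614 and Gabrb1 at 2.14 ± 0.222 were lowest. The place of Gabrb1 below Gabrd rests on the length of its RefSeq transcript, 14272 bases for a coding sequence of 1425. Before scaling by length its RNA was at 30.5 CPM, against 17.3 for Gabrd and at least 99.1 for the others. The authors' own transcript models were not used here. Gabra5, first of the 7 in RNA, was the fourth in RPFs, and Gabra2, the fifth in RNA, was first in RPFs. With the shortest coding transcript in place of the longest, Gabra4 moved to the top in RPFs at 427 CPM per kb. That place came from the short coding sequence of its shortest transcript, as its longest has 1737 coding bases. The order in RNA was the same.

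**Figure D1:**
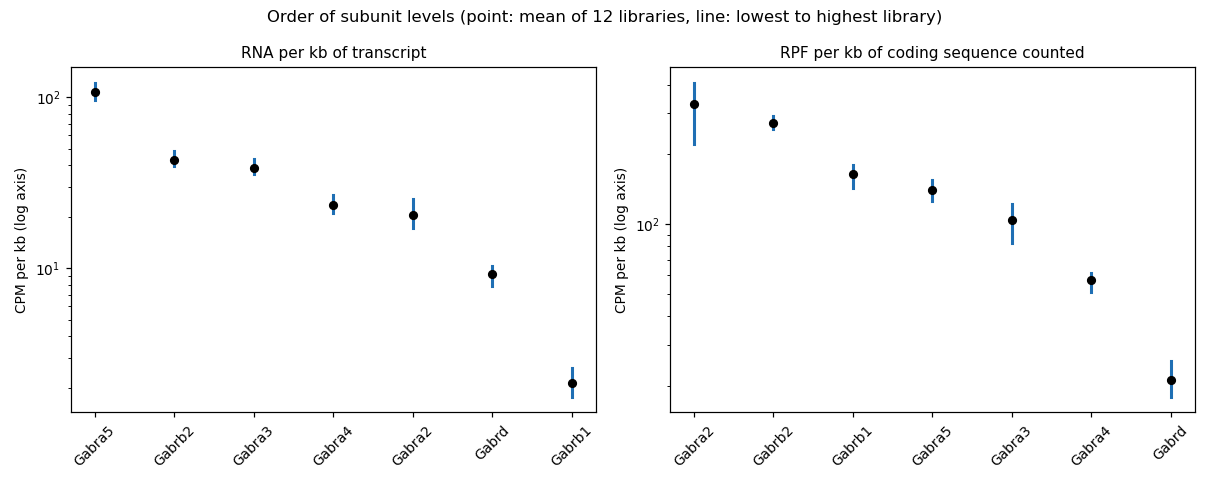
Level of each subunit per kb, for RNA over the whole transcript (left) and RPFs over the coding sequence counted (right), both on a log axis in CPM per kb. Points are means of 12 libraries and lines run from the lowest to the highest library. Gabra5 is highest in RNA and Gabra2 in RPFs, and Gabrd is lowest in RPFs.

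Gabra2, the alpha 2 subunit of synapses and axon initial segments, had the widest spread within groups of the 7 in RNA and in RPFs. Its RNA was at 98.1, 115 and 94.4 CPM for WT vehicle replicates 1, 2 and 3, 91.2, 106 and 86.9 for WT given DHPG, 88.5, 129 and 119.97 for vehicle-treated Tsc2+/- and 88.1, 126 and 111 for Tsc2+/- given DHPG. Its RPFs were at 288, 466 and 435 CPM for WT vehicle replicates 1, 2 and 3, 353, 473 and 408 for WT given DHPG, 348, 526 and 465 for vehicle-treated Tsc2+/- and 319, 522 and 506 for Tsc2+/- given DHPG. Replicate 2 held the highest value of its group in 4 of 4 groups in both assays, and replicate 1 the lowest RPF value in 4 of 4. All groups overlapped. Of all genes, 1.55% in RNA and 2.56% in RPFs had replicate 2 highest in the 4 groups, and 3.9% had replicate 1 lowest in the 4 RPF groups. The SD of log2 CPM within groups was 0.221 for RNA and 0.331 for RPFs, above that of 99.2% and 99.6% of the genes with counts within 2-fold of its own. Once the mean of each replicate number was also removed, its SD lay above 95% and 82.7% of them, and it was no longer the highest of the 7. The remaining SD was 0.134 in RNA, under 0.164 for Gabrb1, and 0.104 in RPFs, under 0.166 for Gabrd and 0.121 for Gabra3.

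Gabra3, the alpha 3 subunit, found in receptors of several brain stem and forebrain nuclei, was steadier in RNA. Its RNA was at 129.8, 144 and 133 CPM for WT vehicle replicates 1, 2 and 3, 131, 149.9 and 137 for WT given DHPG, 129, 155 and 132 for vehicle-treated Tsc2+/- and 145, 157 and 138 for Tsc2+/- given DHPG. Replicate 2 was again highest in 4 of 4 groups, as in 1.55% of all genes. RPFs stood at 125, 165 and 154 CPM for WT vehicle replicates 1, 2 and 3, 144, 171 and 155 for WT given DHPG, 139.7, 185 and 143 for vehicle-treated Tsc2+/- and 177, 176 and 158 for Tsc2+/- given DHPG. The lowest library was WT vehicle replicate 1, and the groups overlapped in both assays.

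Gabra4, the alpha 4 subunit that often partners delta, had its RNA at 114, 100.2 and 93.4 CPM for WT vehicle replicates 1, 2 and 3, 98.6, 107 and 102 for WT given DHPG, 91.5, 105 and 90.9 for vehicle-treated Tsc2+/- and 95.1, 104 and 88.1 for Tsc2+/- given DHPG. WT vehicle replicate 1, the library with most dentate granule cell marker RNA, was highest. Its RPFs were at 92.4, 98.1 and 85.6 CPM for WT vehicle replicates 1, 2 and 3, 90.2, 100.2 and 99.6 for WT given DHPG, 93.8, 99.7 and 103 for vehicle-treated Tsc2+/- and 93.0, 99.4 and 98.7 for Tsc2+/- given DHPG, a span of 1.21-fold between the lowest and the highest library.

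Gabra5, the alpha 5 subunit of tonic inhibition in pyramidal neurons, had its RNA at 318, 289.7 and 277 CPM for WT vehicle replicates 1, 2 and 3, 305, 284 and 264 for WT given DHPG, 331, 287 and 290.3 for vehicle-treated Tsc2+/- and 304, 312 and 284 for Tsc2+/- given DHPG. RPFs stood at 167, 185 and 189 CPM for WT vehicle replicates 1, 2 and 3, 189, 182 and 173 for WT given DHPG, 206, 184 and 195 for vehicle-treated Tsc2+/- and 196, 194 and 183 for Tsc2+/- given DHPG. The groups overlapped in both. Gabrd, the delta subunit, had its RNA at 17.1, 14.8 and 16.8 CPM for WT vehicle replicates 1, 2 and 3, 17.3, 17.7 and 19.3 for WT given DHPG, 15.8, 17.9 and 18.05 for vehicle-treated Tsc2+/- and 17.4, 17.4 and 18.1 for Tsc2+/- given DHPG. Each of the 3 WT DHPG libraries lay above each WT vehicle library, by as little as 17.3 against 17.1 CPM, which 5.43% of all genes did as well in this comparison. Its RPFs were at 27.97, 25.8 and 23.2 CPM for WT vehicle replicates 1, 2 and 3, 28.6, 32.98 and 26.4 for WT given DHPG, 29.6, 24.9 and 23.6 for vehicle-treated Tsc2+/- and 25.3, 29.5 and 31.4 for Tsc2+/- given DHPG, with overlapping groups.

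Of the beta subunits, which form the GABA binding site with alpha, Gabrb1 had its RNA at 37.5, 31.5 and 26.1 CPM for WT vehicle replicates 1, 2 and 3, 30.5, 31.9 and 25.4 for WT given DHPG, 28.8, 32.03 and 29.9 for vehicle-treated Tsc2+/- and 28.7, 31.2 and 32.3 for Tsc2+/- given DHPG. RPFs stood at 196, 212 and 242 CPM for WT vehicle replicates 1, 2 and 3, 216, 245 and 228 for WT given DHPG, 231, 229 and 221 for vehicle-treated Tsc2+/- and 221, 225 and 221 for Tsc2+/- given DHPG. Gabrb2, a beta subunit found widely in the forebrain, had its RNA at 360.0, 316 and 296 CPM for WT vehicle replicates 1, 2 and 3, 317, 306 and 295 for WT given DHPG, 294, 325 and 349 for vehicle-treated Tsc2+/- and 339, 325 and 307 for Tsc2+/- given DHPG. Its RPFs were at 388, 379.7 and 423 CPM for WT vehicle replicates 1, 2 and 3, 399, 394 and 416 for WT given DHPG, 410.0, 433 and 399.8 for vehicle-treated Tsc2+/- and 397, 398 and 419 for Tsc2+/- given DHPG and spanned 1.14-fold, the narrowest range of the 7. WT vehicle replicate 1 held the highest RNA value of both beta subunits and, for Gabrb1, the lowest RPF value.

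**Figure D2:**
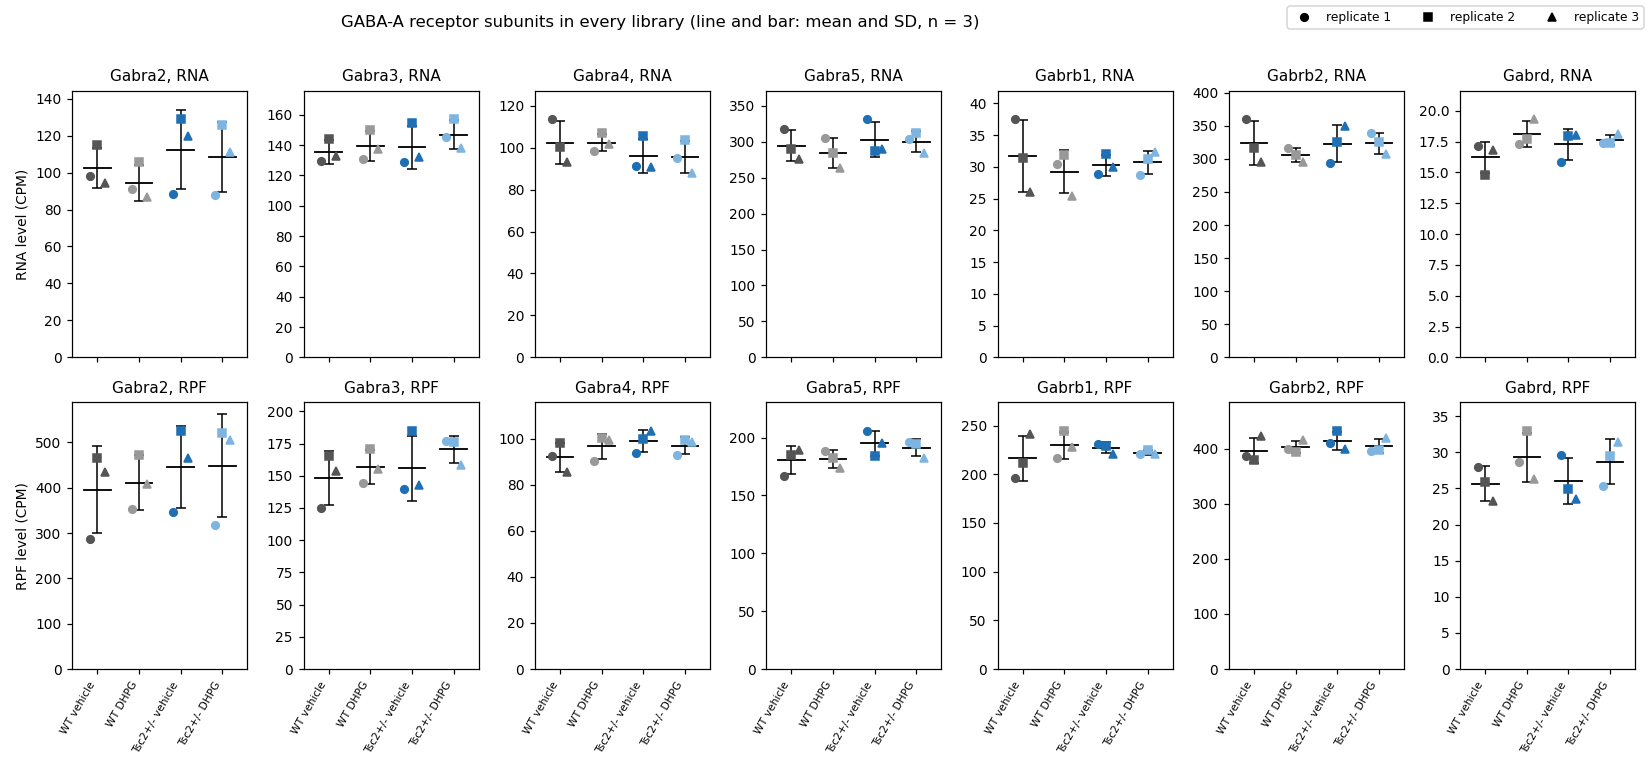
RNA (top) and RPF (bottom) level in CPM of the 7 subunits in each library, by group, with the marker's shape giving the replicate number, the line the group mean and the bar the SD (n = 3). Axes start at 0. For Gabra2, replicate 1 is the lowest RPF value of each group and replicate 2 the highest. For each subunit the vehicle and DHPG groups and the WT and Tsc2+/- groups overlap, except Gabrd RNA in WT.

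RPFs per RNA of each lysate, the ratio of RPF CPM to RNA CPM, set the subunits apart from each other. RNA reads were counted over whole transcripts and RPFs over coding sequences, so ratios of different genes also carry the share of a transcript that is coding. Gabrb1 had 5.22 to 9.26, Gabra2 2.93 to 4.70, Gabrd 1.31 to 1.87, Gabrb2 1.08 to 1.43, Gabra3 0.961 to 1.22, Gabra4 0.813 to 1.14 and Gabra5 0.525 to 0.685 over the 12 lysates. Gabra5, the most abundant of the 7 in RNA per kb, thus had the fewest RPFs per RNA. By lysate, the ratio of Gabra2 was 2.93, 4.05 and 4.61 for WT vehicle replicates 1, 2 and 3, 3.87, 4.48 and 4.70 for WT given DHPG, 3.93, 4.08 and 3.88 for vehicle-treated Tsc2+/- and 3.62, 4.14 and 4.56 for Tsc2+/- given DHPG, and that of Gabra5 was 0.525, 0.639 and 0.685 for WT vehicle replicates 1, 2 and 3, 0.620, 0.640 and 0.657 for WT given DHPG, 0.621, 0.641 and 0.672 for vehicle-treated Tsc2+/- and 0.646, 0.622 and 0.643 for Tsc2+/- given DHPG. In 6 of the 7 subunits, all but Gabrd, WT vehicle replicate 1 was the lowest of the 12 lysates, a place it held in 17.8% of the 12785 genes with both values. This lysate bears on each comparison made against WT vehicle. Values without it are given below for some counts over the 7 subunits, and not for each gene.

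**Figure D3:**
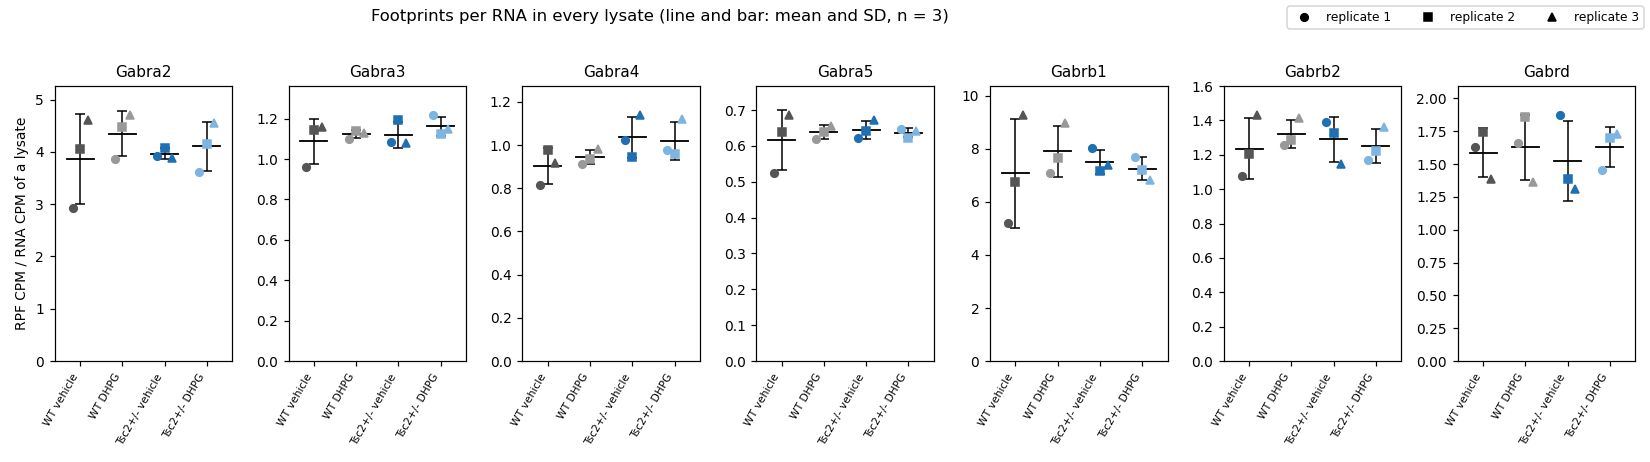
RPFs per RNA of the 7 subunits in each lysate (RPF CPM divided by RNA CPM, axes from 0), by group, with the marker's shape giving the replicate number, the line the mean and the bar the SD (n = 3). The circle of WT vehicle, replicate 1, is the lowest lysate for all subunits except Gabrd.

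The first question was whether losing 1 copy of Tsc2 altered the subunits, and Tsc2+/- was set against WT under vehicle, under DHPG and averaged over both. Averaged over vehicle and DHPG, Gabra2 had the highest value of the 7 in both assays and Gabra4 was the one with a value below 0 in RNA, but 0 of 7 were called at an adjusted p under 0.1 in any of these comparisons (edgeR quasi-likelihood F test, adjusted over all genes tested). In RNA the averaged log2 fold changes were 0.16 (SE 0.0531) for Gabra2, 0.053 (SE 0.0387) for Gabra3, -0.10 (SE 0.0461) for Gabra4, 0.060 (SE 0.0361) for Gabra5, 0.013 (SE 0.0700) for Gabrb1, 0.041 (SE 0.0453) for Gabrb2 and 0.029 (SE 0.0750) for Gabrd. In RPFs they were 0.14 (SE 0.0445) for Gabra2, 0.10 (SE 0.0531) for Gabra3, 0.054 (SE 0.0523) for Gabra4, 0.094 (SE 0.0471) for Gabra5, 0.016 (SE 0.0463) for Gabrb1, 0.035 (SE 0.0387) for Gabrb2 and 0.0023 (SE 0.0874) for Gabrd. The share of all genes called was 0.0896% in vehicle, 0.0482% in DHPG and 0.227% averaged for RNA, and 0.0233%, 0.0155% and 0.0621% for RPFs.

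For Gabra2 the averaged change had an unadjusted p of 0.00626 and an adjusted p of 0.581 in RNA, and was positive in 4 of 6 same-numbered pairs, all but those of replicate 1. In RPFs these were 0.0036 and 0.535, with 5 of 6 pairs. In RNA 2 of the 7 subunits, Gabra2 and Gabra4, had an unadjusted p under 0.05 where 6.12% of all genes did, and in RPFs 1 did (Gabra2, 6.63% of all genes). By treatment, 1 subunit had such a p in RNA in DHPG (Gabra2, log2 fold change 0.19 (SE 0.0753), 4.64% of all genes) and 1 in RPFs in vehicle (Gabra2, 0.18 (SE 0.0631), 6.55% of all genes). The RNA value of Gabra2 moved with the replicates kept. Without that number it was 0.28 (SE 0.0532) and was called (adjusted p 0.0118), and without Tsc2+/- vehicle replicate 1 alone it was 0.21 (SE 0.04996, adjusted p 0.0831), while without replicate 3 it was 0.061 (SE 0.0544, adjusted p 0.996).

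Gabra4 RNA was lower in Tsc2+/- in 5 of 6 pairs (unadjusted p 0.0414, adjusted p 0.796). The Prox1 RNA of granule cells, called lower in Tsc2+/-, lay in the same direction. So did the summed granule cell marker RNA under DHPG, much of it Fam163b, lower in each Tsc2+/- DHPG library than in each WT DHPG library. In vehicle these sums overlapped, whereas Gabra4 RNA was at -0.092 (SE 0.0652) in vehicle and -0.10 (SE 0.0653) under DHPG. The RPFs of these markers summed to 77.2 to 88.2 CPM in Tsc2+/- DHPG against 98.8 to 113 in WT DHPG. In vehicle those sums overlapped too, and Fam163b RPFs averaged 6.76 CPM over the libraries. Gabrd RNA, also best known from granule cells, was at 0.029 (SE 0.0750), and Gabra4 RPFs were at 0.054 (SE 0.0523), both above 0. The part of granule cells in these values was not tested. The RPFs per RNA of Gabra4 differed by 0.15 (SE 0.0714) on the log2 scale (unadjusted p 0.0365, adjusted p 0.995, positive in 5 of 6 pairs), the only 1 of 7 with an unadjusted p under 0.05 in this test, against 4.5% of all genes. Leaving out libraries gave 0.11 to 0.24 for this value. The lowest of the 7 was Gabrd at -0.024 (SE 0.115), and Gabra2 stood at -0.014 (SE 0.0769). For RPFs per RNA 0 of 7 were called by genotype, with 0% of all genes called in vehicle, 0% in DHPG and 0% averaged, that is 0 genes by edgeR in each.

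As a group the 7 lay slightly above 0 in RPFs of vehicle-treated Tsc2+/-, by an amount that moved with the libraries kept. The log2 fold change was positive for 7 of 7 (median 0.076), against 49.5% of all genes (median -0.0021). It was positive for 6 of 7 (median 0.059) without WT vehicle replicate 1, 6 of 7 (median 0.14) without WT vehicle replicate 3, 7 of 7 (median 0.12) without Tsc2+/- vehicle replicate 3, 5 of 7 (median 0.035) without replicate 1 and 7 of 7 (median 0.15) without replicate 3. Under DHPG it was positive for 5 of 7 (median 0.0083), and leaving out libraries gave 4 to 6 of 7 with medians of 0.0030 to 0.069, the lowest without Tsc2+/- DHPG replicate 3 and the highest without WT DHPG replicate 2. In RNA of vehicle-treated slices it was positive for 5 of 7 (median 0.031), a count and a sign of the median that turned on single libraries. There it was positive for 7 of 7 (median 0.080) without WT vehicle replicate 1, 4 of 7 (median 0.014) without WT vehicle replicate 2, 6 of 7 (median 0.055) without Tsc2+/- vehicle replicate 1, 3 of 7 (median -0.0028) without Tsc2+/- vehicle replicate 2 and 2 of 7 (median -0.0071) without replicate 2. In RNA under DHPG it was positive for 5 of 7 (median 0.080), and leaving out libraries gave 4 to 5 of 7 with medians of 0.061 to 0.087. The 7 share their libraries, here and in the counts for DHPG below, and are not replicates of a group. The list was also drawn up with earlier results of these data known. From this same experiment the study reported GABA receptor complex terms among the RPFs it called higher in Tsc2+/-. The counts over the 7 are therefore no separate evidence of a shift.

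The effect of DHPG, which sets off long-term depression through group I glutamate receptors, was asked in WT, in Tsc2+/- and averaged over both. Averaged over genotypes, Gabra3 and Gabrd had the highest values of the 7 in both assays and Gabra2 the lowest in RNA, yet 0 of 7 were called. Gabra3 RNA was higher after DHPG in 6 of 6 same-numbered pairs (log2 fold change 0.062 (SE 0.0387)), as were 2.3% of all genes, and Gabra2 RNA was lower in 6 of 6 (-0.085 (SE 0.0531)), as were 2.47%. In edgeR their adjusted p were 0.733 and 0.737. Gabrd RNA differed by 0.10 (SE 0.0750) averaged and by 0.16 (SE 0.108) in WT alone, the comparison in which its groups did not overlap (edgeR adjusted p 0.794 and 0.836).

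In RPFs after DHPG, Gabrd stood at 0.16 (SE 0.0874) and Gabra3 at 0.12 (SE 0.0532), each positive in 5 of 6 pairs, and Gabra5 was the lowest at -0.011 (SE 0.0471). Of the 7, 1 had an unadjusted p under 0.05 (Gabra3, p 0.0358, adjusted p 0.686), against 6.82% of all genes. RPFs per RNA differed by 0.12 (SE 0.0769) for Gabra2, the highest of the 7, and by 0.018 (SE 0.0714) for Gabra4, the lowest. The log2 fold change of RPFs per RNA averaged over genotypes was positive for 7 of 7 (median 0.053), and 3 of 7 (median -0.0092) without WT vehicle replicate 1, and that of RPFs in WT was positive for 7 of 7 (median 0.078), and 6 of 7 (median 0.031) without WT vehicle replicate 1. In Tsc2+/-, where WT vehicle has no part, RPFs were positive for 2 of 7 (median -0.027), but for 5 of 7 (median 0.013) without Tsc2+/- vehicle replicate 1 and 4 of 7 (median 0.0069) without Tsc2+/- vehicle replicate 2. Leaving out libraries gave 5 to 7 of 7 with medians of 0.031 to 0.13 for RPFs in WT and 3 to 7 of 7 with medians of -0.0092 to 0.088 for RPFs per RNA averaged. RPFs per RNA in WT were positive for 7 of 7 (median 0.060), and leaving out libraries gave 4 to 7 of 7. Their median was lowest, at 0.0045, without WT vehicle replicate 1. The share of all genes called in WT, in Tsc2+/- and averaged was 0%, 0% and 0.0207% in RNA, 0.0311%, 0% and 0.0311% in RPFs and 0.0548%, 0% and 0.0469% in RPFs per RNA. Genotype and DHPG comparisons in vehicle and in WT share the WT vehicle libraries.

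Whether the response to DHPG differed between genotypes was tested as the interaction. In edgeR 0 of 7 were called in RNA, RPFs or RPFs per RNA, with 0%, 0% and 0% of all genes called and a smallest adjusted p of 0.998 among the 7. The interaction ran from -0.13 to 0.13 in RNA, from -0.12 to 0.053 in RPFs and from -0.25 to 0.088 in RPFs per RNA on the log2 scale.

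**Figure D4:**
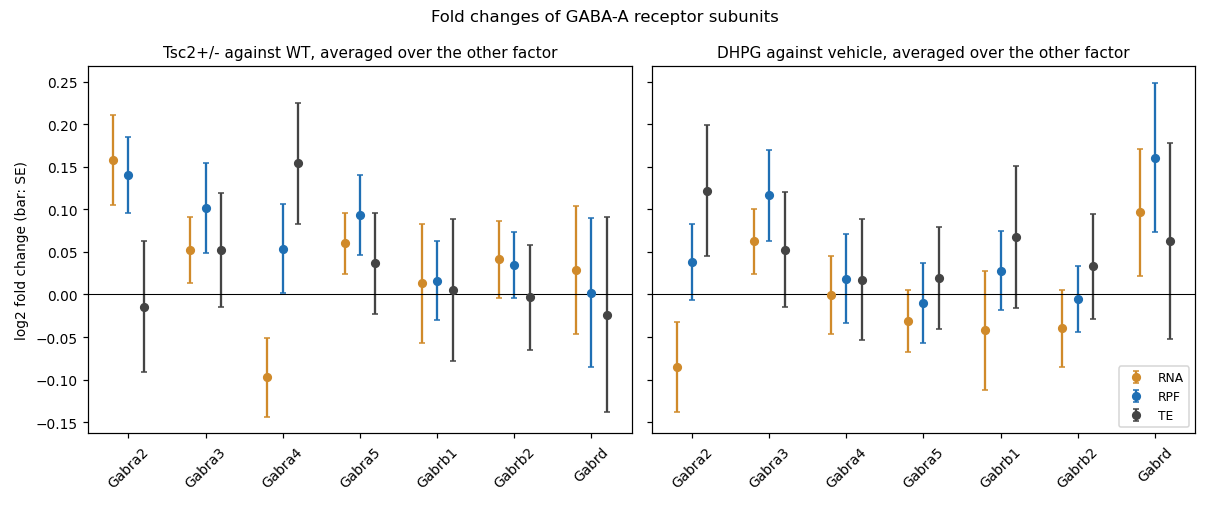
Log2 fold change of each subunit for Tsc2+/- against WT (left) and DHPG against vehicle (right), each averaged over the other factor, in RNA, RPFs and RPFs per RNA (TE). Bars are SE. Gabra2 has the highest RNA and RPF values by genotype and Gabra4 the lowest RNA value, and none of the 42 values passed an adjusted p under 0.1.

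The synaptic subunit of the 7, Gabra2, was then set against each extrasynaptic subunit in each library, as the difference in log2 CPM. Against Gabra5, the RNA difference was -1.70, -1.33 and -1.55 for WT vehicle replicates 1, 2 and 3, -1.74, -1.43 and -1.60 for WT given DHPG, -1.90, -1.15 and -1.27 for vehicle-treated Tsc2+/- and -1.78, -1.31 and -1.36 for Tsc2+/- given DHPG. In RPFs it was 0.78, 1.33 and 1.199 for WT vehicle replicates 1, 2 and 3, 0.90, 1.38 and 1.23 for WT given DHPG, 0.76, 1.51 and 1.25 for vehicle-treated Tsc2+/- and 0.70, 1.42 and 1.47 for Tsc2+/- given DHPG. Gabra2 thus lay below Gabra5 in 12 of 12 RNA libraries and above it in 12 of 12 RPF libraries, and the step from RNA to RPFs was 2.48 to 2.84 on the log2 scale. Against Gabrd, the RNA difference was 2.51, 2.95 and 2.48 for WT vehicle replicates 1, 2 and 3, 2.39, 2.57 and 2.16 for WT given DHPG, 2.48, 2.84 and 2.73 for vehicle-treated Tsc2+/- and 2.33, 2.85 and 2.61 for Tsc2+/- given DHPG. In RPFs it was 3.35, 4.16 and 4.21 for WT vehicle replicates 1, 2 and 3, 3.61, 3.83 and 3.94 for WT given DHPG, 3.54, 4.38 and 4.29 for vehicle-treated Tsc2+/- and 3.64, 4.13 and 4.00 for Tsc2+/- given DHPG. Gabra2 lay above Gabrd in every library of both assays, and the step from RNA to RPFs was 0.84 to 1.78. These differences are in counts and not per length, and per kb the ranges of Gabra2 and Gabra5, and of Gabra2 and Gabrd, stood apart in the same order in both assays.

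All groups overlapped in both differences, in RNA, in RPFs and in RPFs per RNA. The difference from Gabra5 was higher in Tsc2+/- in 4 of 6 same-numbered pairs in RNA, 4 of 6 in RPFs and 2 of 6 in RPFs per RNA, and higher after DHPG in 1, 4 and 5 of 6. The difference from Gabrd was higher in Tsc2+/- in 3 of 6 pairs in RNA, 6 of 6 in RPFs and 4 of 6 in RPFs per RNA, and higher after DHPG in 1, 2 and 4 of 6. In RPFs its mean in Tsc2+/- lay 0.16 above WT in vehicle and 0.13 above it under DHPG, with SDs within groups of 0.17 to 0.48. The share of other gene pairs with 6 of 6 was not computed. No test was run on these differences.

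**Figure D5:**
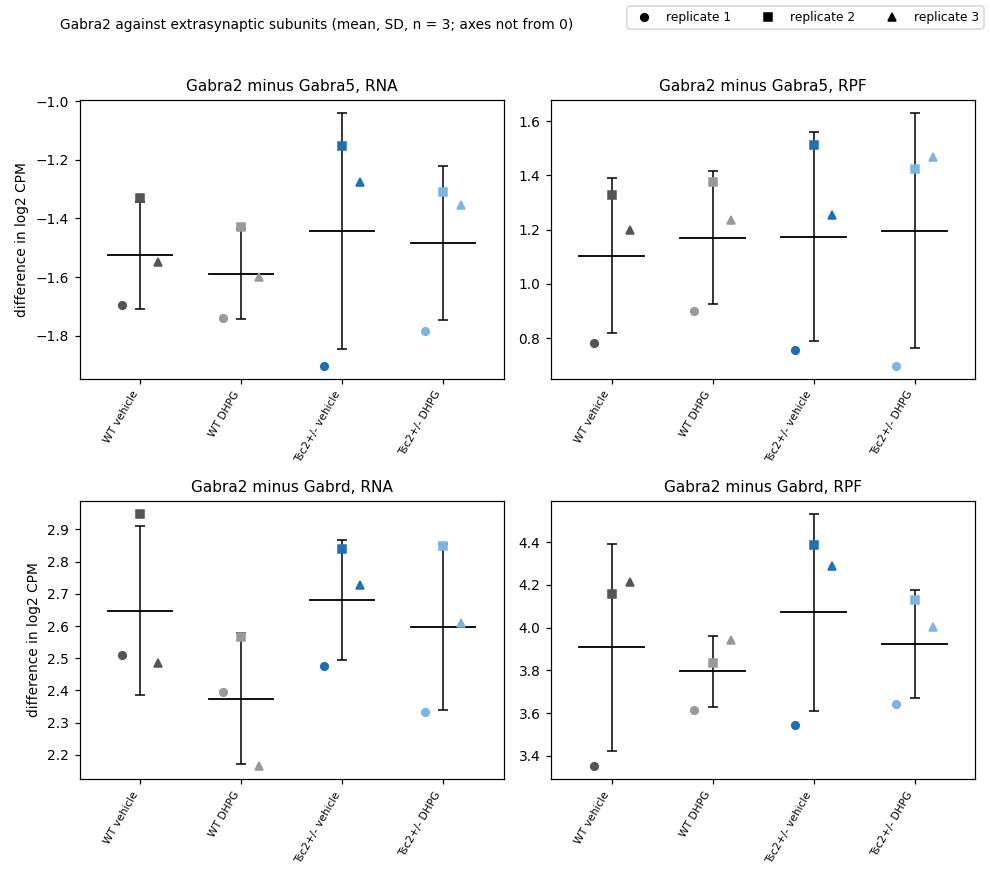
Log2 CPM of Gabra2 minus that of Gabra5 (top) and of Gabrd (bottom) in each library, in RNA (left) and RPFs (right), with the marker's shape giving the replicate number, the line the mean and the bar the SD (n = 3). Axes do not start at 0. Gabra2 is below Gabra5 in each RNA library and above it in each RPF library, and the 4 groups overlap in each panel.

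Among the 12048 genes with a mean RNA count of at least 50, those whose pattern over the 12 RNA libraries was most like each subunit's were listed, by Pearson's r of log2 CPM after the mean of each replicate number was taken out. They were Srp72 (r = 0.95), Ralgapa1 (r = 0.94) and Stxbp5l (r = 0.94) for Gabra2, Kit (r = 0.91), Cxcl2 (r = 0.90) and Zfp811 (r = 0.89) for Gabra3 and Edil3 (r = 0.92), Morn2 (r = 0.90) and Prox1 (r = 0.89) for Gabra4, the last of these a dentate granule cell marker. For the extrasynaptic subunits they were Serinc3 (r = 0.90), Srl (r = 0.88) and Igfbp4 (r = 0.88) for Gabra5 and Slc29a4 (r = 0.89), Acsl6 (r = 0.89) and Elof1 (r = 0.87) for Gabrd. For the beta subunits they were Nudt21 (r = 0.94), Chrm2 (r = 0.91) and Man2a1 (r = 0.89) for Gabrb1 and Cacna2d1 (r = 0.97), Grm5 (r = 0.96) and Xkr4 (r = 0.95) for Gabrb2, the latter set holding Grm5, a group I glutamate receptor that DHPG activates. The 12 points share 3 replicate numbers and pooled tissue, and the highest of many r over 12 points is large in any data. Between subunits, r was highest for Gabra2 and Gabrb2 (0.72), Gabra2 and Gabrb1 (0.67) and Gabrb1 and Gabrb2 (0.62), and lowest for Gabra4 and Gabra5 (-0.35).

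The genes that work with these subunits were looked at as lists. None of 19 genes of the inhibitory postsynaptic scaffold and of receptor trafficking was called in any of 21 comparisons by edgeR (smallest adjusted p 0.338). The same held for 5 of the GABA-B receptor (0.528) and 2 chloride cotransporters (0.473). The genes named next had the smallest unadjusted p of a list for an averaged effect in 1 of the measures. They are named for that reason and were not called, and some of them are from lists of other subunits and of GABA synthesis and transport.

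By genotype, Gabrg1, a gamma subunit, was at 0.19 (SE 0.0594, unadjusted p 0.00313, adjusted p 0.535) in RPFs. Shisa7, an auxiliary subunit of GABA-A receptors, was at 0.094 (SE 0.0341, unadjusted p 0.00895, adjusted p 0.595) in RNA, and Slitrk3, an adhesion molecule of inhibitory synapses, at 0.085 (SE 0.0440, unadjusted p 0.0636, adjusted p 0.756) in RPFs. Gad1, which makes GABA, was at -0.072 (SE 0.0363, unadjusted p 0.054, adjusted p 0.812) in RNA. Kctd16, an auxiliary subunit of GABA-B receptors, was at -0.17 (SE 0.0683, unadjusted p 0.0215, adjusted p 0.673) in RPFs.

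By DHPG, Iqsec3, a guanine nucleotide exchange factor of the inhibitory scaffold, was at 0.13 (SE 0.0395, unadjusted p 0.00163, adjusted p 0.498) in RNA, and Plcl1, a binding partner of GABA-A receptors, at -0.20 (SE 0.0717, unadjusted p 0.0101, adjusted p 0.571) in RPFs. Slc32a1, which loads GABA into vesicles, was at -0.20 (SE 0.0670, unadjusted p 0.00452, adjusted p 0.371) in RPFs per RNA. Kctd12 was at -0.11 (SE 0.0380, unadjusted p 0.00732, adjusted p 0.539) in RNA, and Slc12a2, a chloride importer, at -0.10 (SE 0.0511, unadjusted p 0.0601, adjusted p 0.738) in RPFs. In RPFs the averaged log2 fold change after DHPG was above 0 in 0 of 5 genes of the GABA-B receptor (median -0.053), 0 of 2 chloride cotransporters (-0.059) and 11 of 19 of the scaffold and trafficking list (0.027). It was above 0 in 5 of the 7 subunits (median 0.028) and 49.3% of all genes (median -0.0018), and no difference between lists was tested. The lists of other subunits and of GABA synthesis and transport are left out of these counts. Leaving out libraries was not tried for the lists.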

How the data were processed

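RNA-seq and ribosome profiling libraries of mouse hippocampal slices fell into groups of 3 by the assay, genotype and treatment their labels name, and 0 columns were left without a sample. Replicate numbers were taken as the study's batches. Expected counts per gene were deposited as whole numbers. Per the methods, the authors trimmed reads with Cutadapt and Trimmomatic, removed rRNA and tRNA with Bowtie2, mapped to mm10 with TopHat2, dropped multiply mapped reads and UMI duplicates, and ran RSEM over whole RefSeq transcripts for RNA and over coding sequences less a stretch at each end for RPFs. Their later ComBat and DESeq2 steps are not in these counts.

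From these, genes were filtered with filterByExpr (minimum count 10) in edgeR 4.0.16 under R 4.3.3, scaled by TMM and tested with the two-sided quasi-likelihood F test over the 12 libraries of each assay in a model of group plus replicate number, adjusted by Benjamini-Hochberg over all genes and called at an adjusted p under 0.1. RPFs per RNA (TE) were tested over 12785 genes through the assay by group terms, although RNA and RPF libraries of 1 lysate are not independent. Log2 CPM used a prior count of 2, and SE came from the F statistic. Lengths and positions came from RefSeq on GRCm38.p6, the same build as mm10. RPF lengths were coding lengths less 60 bases. Alternatives were DESeq2 1.42.0, ComBat in sva 3.50.0, limma 3.58.1 on log2 ratios, no block, RLE scaling, no filter, an adjusted p under 0.05, halved RPF counts, only the groups compared, and leaving out libraries or replicate numbers. Procedures were tested on simulated counts.

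All 7 subunits were named in each comparison, genes of partner lists if called or else by the smallest unadjusted p for an averaged effect, and the 3 genes most correlated with each subunit. The members and lists were chosen with earlier results of these data known. Replicates are pools of mice, and p-values measure the spread between these pools. The number of libraries and their depth limit the precision. Results that need certain other genes are not reported here.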

Additional observations from a re-analysis of the deposited data

How the results depend on the processing

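Of the 21 counts of subunits called, the count of 0 was unchanged under all alternatives tried except in RNA for genotype averaged, where leaving out libraries gave 0 to 1, the 1 being Gabra2 without replicate 1 or without Tsc2+/- vehicle replicate 1. The alternatives numbered 22 for RNA, 23 for RPFs and 21 for RPFs per RNA, and leaving out each lysate for RPFs per RNA was chosen after seeing the data. Without the replicate block, the averaged genotype change of Gabra2 in RNA was 0.16 (adjusted p 0.999), and the block changed no call. Same-numbered libraries of different groups had deviations correlated at 0.0228 to 0.143 in RNA and 0.0330 to 0.263 in RPFs, against -0.126 to 0.0240 and -0.194 to 0.0667 for other pairs, and the numbers were kept as a block because the study corrected for batch. Of the log2 fold changes given gene by gene in the report, 9 small uncalled ones took the other sign when libraries were left out, and changes not given there also did. For genotype averaged those given were, over the libraries left out, Gabrb1 (-0.12 to 0.13), Gabrb2 (-0.015 to 0.11) and Gabrd (-0.021 to 0.065) in RNA, Gabrb1 (-0.046 to 0.069) and Gabrd (-0.069 to 0.071) in RPFs, and Gabrd (-0.12 to 0.078) and Gabra2 (-0.10 to 0.049) in RPFs per RNA. For DHPG averaged those given were Gabra5 in RPFs (-0.053 to 0.041) and Gabra4 in RPFs per RNA (-0.015 to 0.066). Gabrd RPFs by genotype, averaged, also turned negative with no replicate block (-0.0036), with ComBat then DESeq2 (-0.0093) and with the counts of replicates 2 and 3 halved (-0.0033), and the cause was not tested. With 3 libraries a group, changes of the size seen here lie near the spread between libraries. Gabrd, with a mean of 225 counts per RPF library as deposited, has the largest SE.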
